A study of Mus musculus with 10 samples.

Results

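The genes described here were 27 genes of cholesterol synthesis, sterol sensing and sterol transport, read from limb muscle of mouse foetuses whose mothers did or did not have gestational diabetes mellitus (GDM). They were taken by gene symbol from the 55401 genes of the FPKM table (fragments per kilobase of transcript, scaled to the mapped fragments of a library), and all 27 reached 1 FPKM in 5 or more libraries and were tested. Wild-type ICR dams of the GDM group received streptozotocin, a toxin of the insulin-producing beta cells, at gestational days 6.5 and 12.5 and had high random blood glucose, whereas control (CTR) dams received the buffer alone. Limb muscle, freed of skin and bone, was collected at embryonic day 18.5 and gave 5 GDM and 5 CTR libraries. The study describes the foetuses as male. Which foetuses were littermates is not stated in the labels, so that p-values measure the spread between libraries, which may include several foetuses of 1 dam, and the model joins hyperglycaemia with exposure of the dam to streptozotocin.

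Cells make cholesterol from acetyl-CoA. The mevalonate pathway yields farnesyl diphosphate, which is joined into squalene, closed into lanosterol and trimmed through a series of sterol intermediates. When sterols in the endoplasmic reticulum run low, the escort protein Scap carries the precursor of the transcription factor encoded by Srebf2 to the Golgi, where it is cleaved, and the free factor activates most genes of the pathway. Insig proteins hold Scap back when sterols are plentiful, and Insig1 is itself a target of the factor. In muscle, cholesterol is a component of the sarcolemma and the transverse tubules, and branches of the pathway supply ubiquinone, dolichol and the lipid anchors of small GTPases.

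Estimates for the biosynthetic enzymes were above 0 in GDM muscle for all 18 of 18 as deposited and for 15 of 18 after scaling. Over all tested genes, 9064 of 13363 estimates were above 0 as deposited and 6782 of 13349 after scaling. The enzymes past the test lay at several steps of the route. With FPKM as deposited, Mvk, Pmvk, Fdps, Sqle, Cyp51, Tm7sf2, Nsdhl, Dhcr7, Ggps1, Srebf2 and Stard4 rose in GDM. These 11 of 27 genes (40.7%) passed an adjusted p of 0.05 in limma, and 0 were lower, also at an unadjusted p under 0.05. The increases were moderate, and 0 of the 27 genes reached a log2 fold change of 1. Many genes behaved alike in these libraries: 35.1% of the 13363 tested genes were called higher and 10.9% were called lower. The share of the 27 genes called higher was therefore close to the background. Their median log2 fold change was 0.38, against 0.15 over all tested genes.

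The shift of all genes was removed by median ratio scaling, which divides each library by the median ratio of its genes to their geometric mean. The median over all tested genes then became 0.005, and of 13349 tested genes 19.6% were called higher and 19.0% lower. Mvk, Pmvk, Fdps, Sqle, Cyp51, Tm7sf2 and Dhcr7 remained past the threshold, 7 of 27 genes (25.9%), all of them enzymes. Again 0 were called lower, although 3 (Insig1, Insig2 and Abca1) had a lower level at an unadjusted p under 0.05. Of the 18 enzymes from Acat2 to Dhcr7, 8 rose as deposited and 7 after scaling (38.9%), and the median log2 fold change of the 18 was 0.43 and 0.28.

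**Figure D1:**
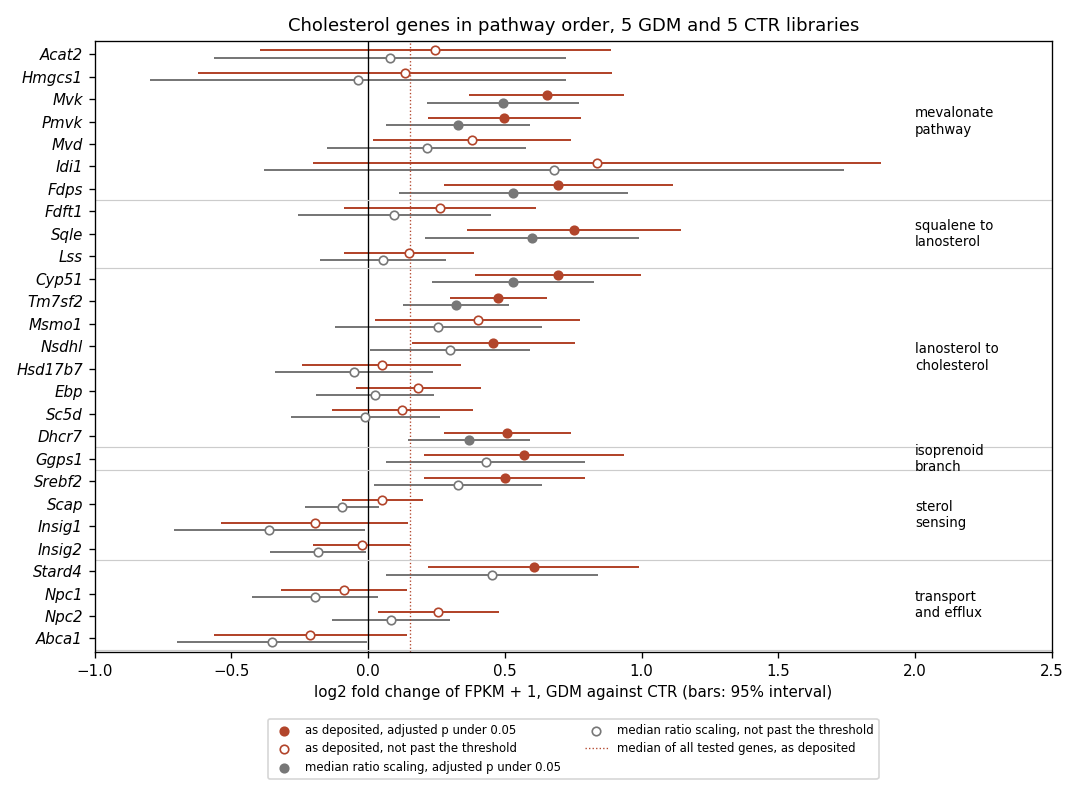
Log2 fold change of FPKM + 1 in GDM against CTR foetal limb muscle (x axis, n = 5 libraries per group) for the 27 genes in pathway order (y axis). Points are limma estimates with 95% intervals, red as deposited and grey after median ratio scaling, filled where the adjusted p was under 0.05. The filled points lie at separate steps of the enzyme series, while Insig1, Insig2, Npc1 and Abca1 lie left of 0 on both scales. The grey points of Hmgcs1, Hsd17b7, Sc5d and Scap also lie left of 0.

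All GDM libraries were deeper than all CTR libraries, with an estimated 17.5 to 20.8 M fragments against 14.4 to 16.5 M, so that depth and group cannot be told apart. Mitochondrially encoded genes held 9.43 to 12.3% of the summed FPKM in GDM and 16.3 to 19.0% in CTR libraries. Muscle fibre genes such as Acta1 and Ckm were abundant in all 10 libraries, with a summed FPKM of the 12 listed genes, most of it from Acta1, of 17245 to 23710 in GDM and 28969 to 34674 in CTR. Of these 12, 8 were lower as deposited, and 2 were higher on both scales, the embryonic myosin Myh3 and the regulator Myog, by log2 fold changes of 1.66 and 0.79. Fat cell markers (12 genes) summed to 76.9 to 98.3 FPKM in GDM and 425 to 2180 in CTR, with 9 of 10 tested markers lower, and Schwann cell markers (12 genes) to 40.7 to 48.8 and 65.6 to 226, with 3 of 9 lower. Markers of dividing cells (10 genes) summed to 120 to 135 FPKM in GDM and 54.6 to 86.9 in CTR, and 10 of 10 were higher. Cartilage markers (11 genes) summed to 33.0 to 63.1 and 10.8 to 20.5 FPKM, and 7 of 7 tested were higher. Skin keratinocyte markers (10 genes) were high in 2 GDM libraries only, at 537 FPKM in GDM 1 and 124 in GDM 3, against 3.45 to 9.49 in the other 8. Neutrophil markers (10 genes) summed to 36.7 to 100.5 FPKM in GDM and 115 to 264 in CTR, with 5 of 7 tested lower, and endothelial markers (10 genes) to 161 to 185 and 206 to 267, with 6 of 10 lower. Fibroblast markers (10 genes) summed to 2521 to 3203 and 1559 to 2124 FPKM, with 5 of 10 higher and 3 lower. Sums of macrophage and erythroid markers overlapped between the groups. No marker was at 0 throughout. Genes of the Y chromosome were present in all 10 libraries, and Xist was at 1.16 FPKM in CTR 1 and at most 0.03 in the others. In bulk tissue, fewer cells of a type and less RNA per cell cannot be told apart, and the part that cell mixture, depth or dividing cells had in the levels below was not tested. Without the 4 libraries with the highest sums of skin, Schwann cell or fat cell markers (GDM 1, GDM 3, CTR 1 and CTR 2), a choice made after seeing the data, a fit of 3 against 3 libraries called 5 of the 27 genes higher as deposited (Mvk, Pmvk, Cyp51, Tm7sf2 and Npc2, against 23.4% of all genes), and after scaling 1 (Tm7sf2, against 10.3%).

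The mevalonate segment begins with Acat2 and Hmgcs1, the cytosolic thiolase and the synthase that build hydroxymethylglutaryl-CoA, and neither differed detectably between the groups. Acat2 ranged from 9.27 to 16.0 FPKM in GDM and from 5.76 to 17.7 in CTR libraries. Reads of Acat2 may be shared with its near-identical relative Acat3, which was at 1.11 and 1.13 FPKM, so its level is uncertain. Hmgcs1 was measured at 10.1, 27.5, 25.9, 20.4 and 23.2 FPKM in GDM 1 to 5 and at 24.9, 19.1, 7.69, 24.6 and 23.0 in CTR 1 to 5. The groups overlapped throughout, with GDM 1 and CTR 3 far below the others, and the log2 fold change was 0.13 (95% interval, -0.62 to 0.89). After scaling its sign turned to -0.04, and without CTR 3 it was -0.16 as deposited.

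The kinases that follow were higher in GDM. Mvk, mevalonate kinase, was at 8.95, 11.6, 9.60, 8.90 and 8.08 FPKM in GDM 1 to 5 and at 6.44, 4.73, 4.19, 6.20 and 6.78 in CTR 1 to 5. Every GDM library lay above every CTR library, as deposited and after scaling. The log2 fold change was 0.65 ± 0.13 (SE; limma adjusted p = 0.0020; exact permutation p = 0.0079, n = 5 per group), and 0.49 after scaling (adjusted p = 0.010). Pmvk, the phosphomevalonate kinase, was at 17.0, 21.9, 16.6, 17.1 and 14.1 FPKM in GDM and at 11.6, 15.5, 10.1, 12.1 and 10.7 in CTR. Only CTR 2 reached above the lowest GDM library. Its log2 fold change was 0.50 (limma adjusted p = 0.0086) and 0.33 after scaling, where the adjusted p of 0.049 was just inside the threshold and ranged from 0.011 to 0.10 when single libraries were left out. It stayed called there only without GDM 5 or CTR 2.

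Mvd, the decarboxylase that makes isopentenyl diphosphate, did not pass (log2 fold change 0.38, limma adjusted p = 0.081), but did without GDM 4 or without CTR 5, with an adjusted p as low as 0.035. Idi1, the isomerase that balances both isoprene units, had the largest estimate of the 27 genes, 0.84, with a 95% interval of -0.20 to 1.88. Its CTR mean was pulled down by CTR 2 at 0.74 FPKM, while the other CTR libraries were at 7.08 to 10.7 and GDM libraries at 9.48 to 15.3, and without CTR 2 the estimate was 0.33. Fdps, which makes farnesyl diphosphate, was at 11.5, 17.5, 15.6, 10.3 and 11.2 FPKM in GDM and at 8.93, 5.68, 5.60, 8.62 and 10.3 in CTR. The GDM and CTR libraries just separated, with GDM 4 and CTR 5 almost level, and did not after scaling. The log2 fold change was 0.70 (limma adjusted p = 0.012) and 0.53 after scaling (0.047), where the call held only without GDM 4 or CTR 5, with adjusted p-values from 0.025 to 0.10 as single libraries were left out.

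Of the enzymes that lead from farnesyl diphosphate to lanosterol, the middle one passed the test. Fdft1, squalene synthase, was at 11.4 to 14.9 FPKM in GDM and 8.17 to 14.6 in CTR (log2 fold change 0.26, limma adjusted p = 0.20). Its exons overlap those of Ctsb on the opposite strand, which was more abundant at a mean of 46.9 FPKM with a log2 fold change of -0.17, so the level of Fdft1 is uncertain. Sqle, squalene epoxidase, a rate-limiting oxygen-dependent step, was at 7.17, 10.3, 8.05, 6.0 and 6.70 FPKM in GDM and at 5.19, 2.67, 3.17, 4.93 and 4.94 in CTR. All GDM libraries were above all CTR libraries on both scales, GDM 2 being highest and CTR 2 lowest. With a ratio of mean FPKM of 1.83, Sqle had the greatest relative difference of the 27 genes by that measure, and its log2 fold change was 0.75 ± 0.18 (SE; limma adjusted p = 0.0058) and 0.60 after scaling (0.021). Lss, which closes the ring system of lanosterol, was low at 0.88 to 1.60 FPKM in GDM and 0.79 to 1.35 in CTR, and its log2 fold change was 0.15 (adjusted p = 0.28).

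**Figure D2:**
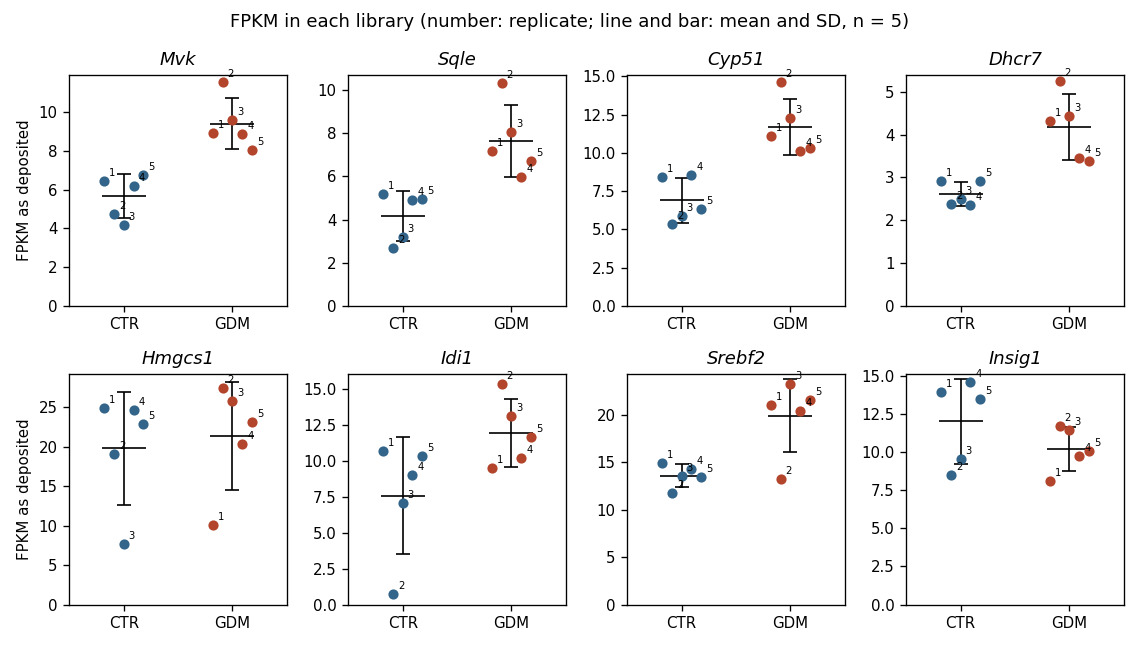
FPKM as deposited (y axis, from 0) of 8 genes in each CTR (blue) and GDM (red) library. Numbers give the replicate, and lines with bars the mean and SD of 5 libraries. Mvk, Sqle, Cyp51 and Dhcr7 show no overlap between the groups, Idi1 has 1 low CTR library at 0.74, and Srebf2 has 1 low GDM library at 13.3.

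The sterol segment opened with a clear difference and was mixed further on. Cyp51, the lanosterol demethylase, was at 11.1, 14.6, 12.3, 10.1 and 10.3 FPKM in GDM and at 8.41, 5.34, 5.89, 8.52 and 6.31 in CTR. The groups did not overlap on either scale, and the log2 fold change was 0.69 ± 0.14 (SE; limma adjusted p = 0.0021), or 0.53 after scaling (0.010). Its gene overlaps an exon of Akap9 on the opposite strand. As the use of strand in counting is not stated, its level is uncertain to that extent, though Akap9 had a log2 fold change of -0.21. Tm7sf2, a sterol reductase of the next step, was at 6.26, 8.16, 7.88, 7.85 and 8.65 FPKM in GDM and at 5.05, 4.91, 5.36, 5.26 and 5.79 in CTR. The tight CTR values gave it the smallest adjusted p of the 27 genes (0.00080 in limma, log2 fold change 0.48), and it was the 1 gene called under all 30 alternative settings. After scaling its log2 fold change was 0.32 (limma adjusted p = 0.015), and the groups overlapped, with GDM 1 below CTR 3 and CTR 5. Its exons overlap those of Vps51 on the same strand, at a mean of 4.74 FPKM, for which the log2 fold change was 0.09 (adjusted p = 0.41). The level of Tm7sf2 is therefore also uncertain to that extent.

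Msmo1, the methylsterol oxidase, was at 3.74 to 6.08 FPKM in GDM and 2.35 to 4.41 in CTR and did not pass (log2 fold change 0.40, limma adjusted p = 0.076), except without CTR 5 (0.045). Nsdhl, the dehydrogenase that acts with it to remove methyl groups, was at 7.27 to 11.4 and 4.93 to 7.65 FPKM. It rose as deposited by a log2 fold change of 0.46 (adjusted p = 0.018), and its scaled value of 0.30 did not pass (0.098) except without CTR 1 (0.043). Hsd17b7, the reductase of the same complex, had overlapping ranges of 1.10 to 1.66 FPKM in GDM and 0.66 to 1.75 in CTR (log2 fold change 0.05, -0.05 after scaling). Likewise no difference was detectable for Ebp, the sterol isomerase, at 0.18 (95% interval, -0.05 to 0.41), or for Sc5d, the desaturase that follows, at 0.13 (-0.13 to 0.38), whose sign turned to -0.01 after scaling.

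Dhcr7, a sterol reductase at the end of the route, was at 4.33, 5.25, 4.43, 3.45 and 3.39 FPKM in GDM and at 2.90, 2.38, 2.49, 2.34 and 2.92 in CTR. The groups did not overlap on either scale. The log2 fold change was 0.51 ± 0.11 (SE; limma adjusted p = 0.0028), or 0.37 after scaling (0.015). Lbr, a nuclear membrane protein that shares the reductase activity of Tm7sf2, is not among the 27 genes and rose as well, by a log2 fold change of 0.42 (limma adjusted p = 0.00024), while the mitochondrial thiolase Acat1 fell by 0.21 (0.020). Both were also called after scaling. Over the 27 genes, 7 had every GDM library above every CTR library as deposited (Mvk, Fdps, Sqle, Cyp51, Tm7sf2, Dhcr7 and Stard4), a pattern shown by 27.2% of all tested genes. After scaling 4 did (Mvk, Sqle, Cyp51 and Dhcr7), against 15.0% of all tested genes. Mvk, Sqle, Cyp51, Tm7sf2 and Dhcr7 were called whichever single library was left out, on both scales.

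Ggps1 makes geranylgeranyl diphosphate, the lipid anchor of many small GTPases, from farnesyl diphosphate. Its level was 4.22 to 5.47 FPKM in GDM and 1.77 to 4.28 in CTR, with CTR 4 above GDM 1. It rose as deposited by a log2 fold change of 0.57 (limma adjusted p = 0.016), and the scaled 0.43 did not pass (0.061) except without CTR 4 (0.017). An exon of Arid4b (log2 fold change 0.14) overlaps it on the opposite strand. Of 12 genes that use isoprenoids, 4 rose (Rce1, Fntb, Icmt and Dhdds) and 0 fell as deposited, at a median log2 fold change of 0.13. The 33.3% that rose was close to the 35.1% of all tested genes. Among them Rce1, the protease that trims prenylated proteins, Fntb, the beta subunit of farnesyltransferase, and Icmt, their methyltransferase, had log2 fold changes of 0.41, 0.37 and 0.30. After scaling 1 rose (Rce1) and 3 fell (Pdss1, Pdss2 and Fnta), 8.33% and 25% against 19.6% and 19.0% of all tested genes.

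The sensing genes did not move together. Srebf2, the transcription factor of the pathway, was at 21.1, 13.3, 23.2, 20.4 and 21.5 FPKM in GDM and at 14.9, 11.7, 13.5, 14.3 and 13.4 in CTR. Of the GDM libraries 4 lay above all CTR libraries, and GDM 2 lay among the CTR libraries. Srebf2 rose as deposited by a log2 fold change of 0.50 ± 0.13 (SE; limma adjusted p = 0.011). After scaling, 0.33 did not pass (0.086), but without GDM 2 the scaled value was 0.47 (0.0020). Scap, the escort, was at 4.94, 4.46, 4.17, 4.25 and 4.66 FPKM in GDM and at 4.33, 4.65, 3.72, 4.46 and 4.38 in CTR. These ranges overlapped, and the log2 fold change of 0.05 (95% interval, -0.10 to 0.20) turned to -0.10 after scaling.

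Insig1, the retention protein that is induced with the pathway, was at 8.13, 11.7, 11.5, 9.76 and 10.1 FPKM in GDM and at 14.0, 8.47, 9.56, 14.6 and 13.5 in CTR. CTR 1, 4 and 5 were above all GDM libraries, and CTR 2 and 3 were within their range. The log2 fold change was -0.19 (95% interval, -0.54 to 0.15; limma adjusted p = 0.33) and -0.36 after scaling (0.094), where it passed only without CTR 2 (-0.48, 0.021). Insig2, its constitutive relative, was at 7.27, 8.60, 7.47, 8.36 and 8.83 FPKM in GDM and at 8.06, 9.26, 7.98, 8.94 and 7.08 in CTR. Its log2 fold change was -0.02, and -0.18 after scaling (0.091, or 0.040 without CTR 5). In a further list of genes of this machinery, Erlin1, Erlin2, Rnf145 and Syvn1 rose as deposited, and after scaling Erlin1, Erlin2 and Rnf145 rose and Rnf139 fell. Erlin1 and Erlin2, membrane proteins that restrain Scap and assist in degradation, and Rnf145, a ubiquitin ligase, had log2 fold changes of 0.66, 0.50 and 0.60, and were called on both scales.

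Within each library, the ratio of an enzyme to Insig1 does not depend on scaling. This measure was chosen after the values were seen and carries no test. Cyp51 stood at 1.02 to 1.37 times the FPKM of Insig1 in GDM and at 0.47 to 0.63 times in CTR libraries. Sqle stood at 0.61 to 0.88 and 0.31 to 0.37 times, so that neither ratio overlapped between the groups. Cyp51 and Sqle were already separated on both scales, and Insig1 had the lowest scaled estimate of the 27 genes (-0.36). Separation of these ratios was thus nearly given by the choice of genes and is no further support. Ratios of the other enzymes were not computed. The other ratios computed did overlap, with Srebf2 at 1.13 to 2.59 times the FPKM of Insig1 in GDM and 0.98 to 1.42 times in CTR, and Insig2 at 0.65 to 0.89 and 0.52 to 1.09 times.

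**Figure D3:**
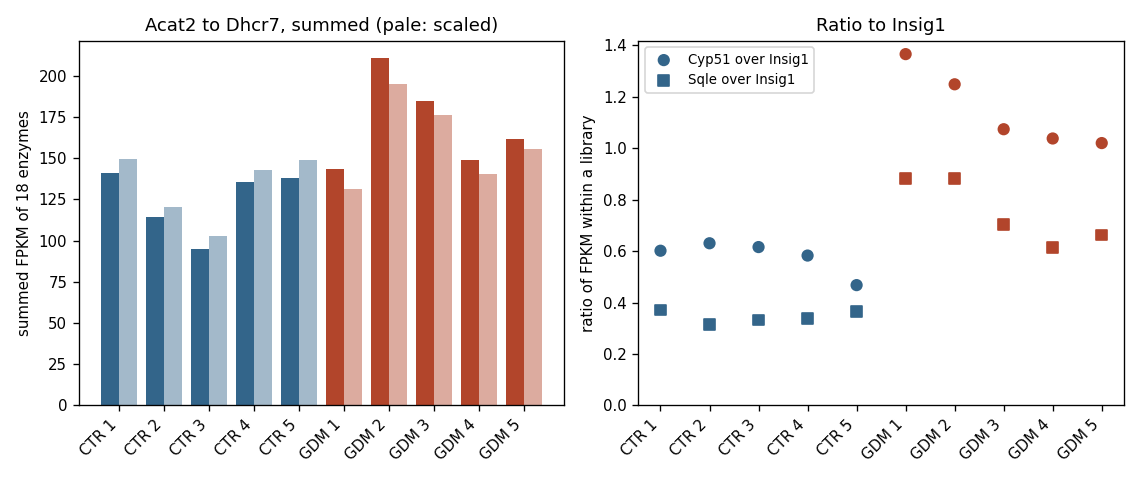
Left, FPKM summed over the 18 enzymes in each library (bars from 0, blue CTR, red GDM, pale bars after median ratio scaling). Right, ratio of Cyp51 (circles) and Sqle (squares) to Insig1 in FPKM within a library, at 1.02 to 1.37 and 0.61 to 0.88 in GDM against 0.47 to 0.63 and 0.31 to 0.37 in CTR. These ratios were chosen after the values were seen and carry no test. Those of Srebf2 and Insig2 to Insig1, not shown, overlapped between the groups.

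Of the 22 genes with a promoter to search, only Hmgcs1 and Srebf2 held a searched form of the sterol element core. Other forms were not searched, so that the remaining genes cannot be said to lack the element. Stretches upstream of the start sites are shown for Hmgcs1, Srebf2, Mvk (called on both scales) and Insig1 (estimate below 0). They come from RefSeq promoters on GRCm38.p6 (250 bases before to 50 after a start), cut to the longest part before the start site without an annotated exon, 5′ to 3′ on the plus strand, which is the strand of all 4 genes. Capitals mark TCACNCCAC or ATCACNCCA (variants of the sterol regulatory element core), CCAAT (the NF-Y box) and GGGCGG (the GC box bound by Sp factors), on either strand.
Hmgcs1: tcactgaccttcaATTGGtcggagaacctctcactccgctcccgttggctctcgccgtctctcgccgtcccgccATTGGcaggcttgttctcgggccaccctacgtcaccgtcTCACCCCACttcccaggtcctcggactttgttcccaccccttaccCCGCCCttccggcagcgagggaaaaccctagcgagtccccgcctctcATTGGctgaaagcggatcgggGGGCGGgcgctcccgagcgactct
Srebf2: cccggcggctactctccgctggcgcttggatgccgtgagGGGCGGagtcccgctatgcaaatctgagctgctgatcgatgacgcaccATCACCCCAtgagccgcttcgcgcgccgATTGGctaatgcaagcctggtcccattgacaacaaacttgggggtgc
Mvk: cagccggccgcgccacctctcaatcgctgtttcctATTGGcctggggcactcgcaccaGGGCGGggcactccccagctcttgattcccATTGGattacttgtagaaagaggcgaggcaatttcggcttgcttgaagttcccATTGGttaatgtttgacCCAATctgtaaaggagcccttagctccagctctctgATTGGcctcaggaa
Insig1: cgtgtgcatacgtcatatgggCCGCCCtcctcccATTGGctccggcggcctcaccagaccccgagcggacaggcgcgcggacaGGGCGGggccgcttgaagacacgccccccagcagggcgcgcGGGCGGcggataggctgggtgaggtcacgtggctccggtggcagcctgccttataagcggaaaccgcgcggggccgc
In Hmgcs1 (chr13:119690101-119690350) the sterol core starts at -137 from the start site, between CCAAT boxes. In Srebf2 (chr15:82147019-82147180) it starts at -163, followed by a CCAAT box in reverse. The stretch of Mvk (chr5:114444061-114444268), which begins at the exon of the divergent gene Mmab, carries CCAAT boxes in both orientations. The log2 fold change of Mmab, a cobalamin adenosyltransferase of the mitochondrion, was 0.61 (limma adjusted p = 2.7e-05), close to the 0.65 of Mvk. The stretch of Insig1 (chr5:28071162-28071362) has CCAAT once and GGGCGG more often.

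RefSeq promoters were matched for 22 of the 27 genes. In the windows of 300 bases, CCAAT was found in 19 of 22 genes (86.4%), against 42.6% of the tested genes with a promoter and 41.1% of all genes in the promoter table. GGGCGG was found in 20 (90.9%), against 69.7% and 38.2%. Both motifs were present in 17 (77.3%), against 29.8% and 15.8%. Either sterol core was found in 2 (9.09%), against 1.82% and 2.14%. The CCAAT motif thus stood in genes that rose (Mvk, Cyp51) and in genes that did not (Hmgcs1, Insig1), and a match is a description of letters, not a bound site.

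Of the 4 transport genes, Stard4 alone passed the test as deposited. Stard4, a soluble carrier that moves cholesterol between membranes, was at 6.77, 8.05, 8.94, 6.26 and 7.21 FPKM in GDM and at 5.10, 4.42, 2.48, 5.47 and 5.87 in CTR. The groups did not overlap as deposited, and CTR 3 was lowest. It rose by a log2 fold change of 0.61 (limma adjusted p = 0.016), and the scaled 0.45 did not pass (0.064) except without CTR 5 (0.041). Npc1 and Npc2, which hand cholesterol out of the lysosome, had log2 fold changes of -0.09 (adjusted p = 0.52) and 0.26 (0.057). Npc2 was at 22.5 to 25.4 FPKM in GDM and at 17.9 to 19.3 in CTR but for CTR 2 at 26.4, and without CTR 2 it passed on both scales, at 0.36 as deposited and 0.18 after scaling (0.00067 and 0.029). Npc1 was low, at 1.13 to 1.54 FPKM in GDM and 1.15 to 1.85 in CTR, and shares exon sequence with Rmc1 on the opposite strand.

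Abca1, the exporter that is switched on by oxysterols through liver X receptors, was at 3.17 to 3.67 FPKM in GDM and at 3.18 to 3.67 in CTR but for CTR 2 at 7.06. The log2 fold change was -0.21 (limma adjusted p = 0.30) and -0.35 after scaling (0.10). Without CTR 2 the value as deposited was -0.04, and the scaled value was -0.19 and passed (0.038). CTR 2 was also the library with the highest fat cell markers, at 2180 FPKM. Of 5 tested liver X receptor genes and targets, 0 rose and 1 fell as deposited, Lpcat3 (-0.43, limma adjusted p = 0.0020), a lysophospholipid acyltransferase. After scaling 3 fell (Lpcat3, Nr1h2 and Mylip). These falls were 20% and 60% of the small list, against 10.9% and 19.0% of all tested genes.

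Neighbouring lipid pathways gave mixed counts in the same fit. Of 15 tested genes of sterol uptake and transport, 4 rose (Soat1, Gramd1a, Lrp1 and Stard3) and 1 fell (Nceh1) as deposited, and after scaling 3 rose, without Stard3, and 3 fell (Nceh1, Osbpl1a and Osbpl2). The shares that rose, 26.7% and 20.0%, were below and close to those of all tested genes, 35.1% and 19.6%. Soat1, which esterifies cholesterol for storage, rose by 0.60 and Nceh1, which hydrolyses its esters, fell by 0.84 on the log2 scale, while Gramd1a, a carrier from the plasma membrane, rose by 0.50. Soat1, Nceh1 and Gramd1a were called on both scales. Of 4 tested enzymes that form or convert oxysterols, 3 rose on both scales, namely Cyp27a1, Cyp46a1 and Cyp7b1, by 0.69, 0.54 and 0.43 as deposited. That is 75% of a small list, against 35.1% of all tested genes as deposited and 19.6% after scaling. Of 11 genes of fatty acid synthesis, 2 rose (Acly and Elovl5) and 2 fell (Me1 and Thrsp) as deposited, 18.2% each way against 35.1% and 10.9% of all tested genes. Acly, which makes cytosolic acetyl-CoA for both pathways, rose by 0.57 (adjusted p = 0.00024), Elovl5, an elongase, rose by 0.34 and did not pass after scaling (0.098), and the malic enzyme Me1 fell by 1.09 (0.00023). Fasn, the fatty acid synthase, was at 0.16 (0.58) and is named as a landmark, chosen after its value was seen.

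The summed level of the enzymes varied among the libraries of each group. Summed over the 18 enzymes, GDM libraries held 144, 211, 185, 149 and 162 FPKM and CTR libraries 141, 114, 94.7, 136 and 138. The groups touched without overlapping, with GDM 1 at 144 and CTR 1 at 141. After scaling they overlapped, at 131 to 195 and 103 to 150. GDM 2 had the highest value of its group in 15 of 18 enzymes, although its Srebf2 was the lowest of the GDM libraries. CTR 2 and CTR 3 were lowest of their group in 7 enzymes each, and CTR 5 was highest in 8.

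**Figure D4:**
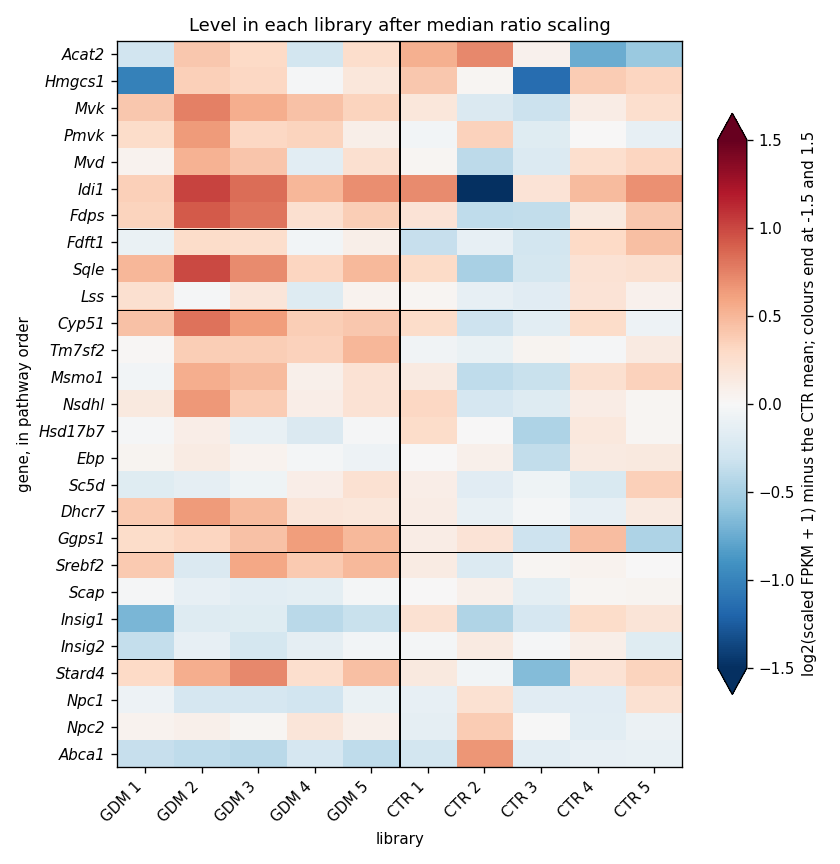
Level of the 27 genes (rows, pathway order) in each of 10 libraries (columns) as log2(scaled FPKM + 1) minus the mean of the 5 CTR libraries, after median ratio scaling. Red is higher and blue lower, and colours end at -1.5 and 1.5. GDM 2 is red over most enzymes, CTR 2 shows Idi1 below the colour range, and Insig1 and Abca1 are pale blue to blue in GDM.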

How the data were processed

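Poly(A) libraries with a dUTP-marked second strand were sequenced from foetal limb muscle, 5 per group as the sample titles give it. The submitters' notes name HISAT2 2.0.4, StringTie 1.3.4d, edgeR and DESeq2 and the build mm10, with no version of the last-named tools. The FPKM were computed by the authors and deposited as 1 value per gene and library, with 0.0001 as the floor. No further scaling, nor the use of strand in counting, is given in the sources used here. The fold, p and q columns of the authors, in the same file, were not used.

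GDM was compared with CTR in R 4.3.3 with limma 3.58.1, whose prior was robust and followed the mean level, on log2(FPKM + 1), a scale that understates changes of low genes, for genes with at least 1 FPKM in at least 5 libraries. Benjamini-Hochberg adjustment ran over all tested genes, with a threshold of 0.05. Single genes were also compared by a two-sided exact permutation test over 252 assignments, whose smallest p is 0.0079. Median ratio scaling used 11341 genes. The fit was also run on simulated data that held no shift of all genes, so that run does not bear on calls under such a shift. The data.table package (1.17.8), Python 3.11.15, pandas 2.3.3, numpy 2.4.6 and matplotlib 3.10.9 were used. Depth was estimated from the steps between low values of single-transcript genes and is approximate, so no counting intervals are given. Of 55401 identifiers, 55141 were found in GENCODE vM21, which gave coordinates and overlaps, and promoters came from RefSeq.

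The members and lists were chosen with earlier results of these data known. All 27 members are named, and up to 3 genes of each other list with the smallest adjusted p. Some genes of these lists are not reported here, so that their counts are not given in full. Further genes named are overlapping or neighbouring genes, members of a small count, or landmarks, chosen after their values were seen. Alternatives were another pseudocount (0.1), no filter, other scalings, a replicate block, and leaving out libraries.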

Additional observations from a re-analysis of the deposited data

Results flagged for a closer look

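In 56 groups of 5 libraries (each gene in each group, and the summed enzymes), 3 single values stood apart from the other 4 by Dixon's test at the critical value of 0.71, and chance alone sets apart about 1 in 20 groups. Srebf2 in GDM 2 was at 13.3 FPKM, with the next GDM value at 20.4. Npc2 in CTR 2 was at 26.4 FPKM, with the next CTR value at 19.3. Abca1 in CTR 2 was at 7.06 FPKM, with the next CTR value at 3.67.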

How the results depend on the processing

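Genes called higher and lower, 4691 and 1451 as deposited, became 2614 and 2538 with median ratio scaling, 2597 and 2550 when mitochondrial, globin and marker genes were left out of the factors, and 2881 and 2343 with quantile normalization, and the share of higher calls among all calls went from 76.4% to 50.7% with scaling. Of the 27 genes, 7, 6 and 7 were called higher under these scalings, against 11 as deposited. The replicate number as a block gave 8 genes as deposited (without Fdps, Nsdhl and Stard4) and, with scaling, 6 genes and 2127 of all genes higher. Libraries with the same number did not deviate together (r of -0.019 to -0.072), so the number is no pairing. Sqle lost its call in the fit with scaling and block (adjusted p = 0.080). With single libraries left out, 11 to 13 genes were called higher as deposited and 5 to 7 after scaling, 0 to 2 lower, and over both scales 2241 to 4587 of all genes higher and 1235 to 2392 lower. Without the 4 libraries of highest marker sums, chosen after seeing the data, 5 genes, 2892 of all genes higher and 862 lower were called as deposited, and 1 gene and 1273 of all genes higher with scaling, in fits of fewer libraries. A pseudocount of 0.1 or no filter left the same 11 genes called.

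Of 808 values of single genes under these alternatives, 651 kept direction and side of the threshold, 90 lost the call, 9 gained it and 58 changed sign, the last only in genes not called. Under scaling, without marker genes in the factors, by quantiles and with the block, the log2 fold change of Hmgcs1 was -0.037 to -0.039, of Hsd17b7 -0.052, -0.053 and -0.062, of Sc5d -0.010, -0.012 and -0.021 and of Scap -0.096, -0.097 and -0.093, except that Hmgcs1 kept its sign by quantiles. Without the 4 libraries, Fdft1 was at -0.053 and Scap at -0.074 after scaling and Insig2 at 0.098 as deposited. With single libraries left out, over both scales, Acat2 ranged from -0.11 to 0.43, Hmgcs1 from -0.32 to 0.37, Hsd17b7 from -0.17 to 0.12, Ebp from -0.068 to 0.22, Sc5d from -0.069 to 0.21, Scap from -0.13 to 0.075 and Insig2 from -0.23 to 0.015. The lowest genes, Lss, Npc1 and Hsd17b7 at about 1 FPKM, rest on few fragments, and no counts were at hand to give their counting error.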
